A study of Mus musculus with 9 samples.

Results

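The collagen genes were followed through every annotated cell type of the mouse thyroid after antibody blockade of Notch signalling. A gene was taken as a collagen gene when its mouse symbol was Col, a number, the letter a and a number. Of 44 such genes among the 52636 genes of the count table, 40 had at least 10 counts over all cells and were kept. The 4 below that minimum were Col6a5 with 8 counts, Col2a1 with 4, Col10a1 with 3 and Col6a4 with 1, and the lowest genes kept were Col22a1 with 10 and Col24a1 with 17. The 40 genes held 114349 of 63121420 unique molecular identifiers (UMIs, each standing for 1 captured transcript), which is 0.181%.

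The data were droplet 3′ single-cell RNA-seq of 9 libraries, each a pool of the digested thyroids of 6 normal male C57BL/6 mice, aged 10 to 14 weeks in the sample protocol and 10 to 12 weeks in the series design. All mice had 1 intraperitoneal injection and were taken 7 days later. The control group, RW, had anti-ragweed antibody at 40 mg/kg. The aJ1aJ2 group had anti-Jag1 and anti-Jag2, which bind Notch ligands, at 20 mg/kg each, and the aN1aN2 group had anti-Notch1 at 5 mg/kg and anti-Notch2 at 10 mg/kg, which bind Notch receptors. Each group had 3 libraries, named RW 1, 2 and 3, aJ1aJ2 1, 3 and 4, and aN1aN2 1, 2 and 3. Antibodies reach every cell type of the animal, so no group isolates an effect within 1 cell type. The p-values measure the spread between pools of mice.

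Collagens are triple-helical proteins of the extracellular matrix, built from 3 chains that may be the same or different. Fibrillar collagens (mainly types I, III and V here, with the sparse types XI, XXIV and XXVII) form the tensile fibres of connective tissue and are mainly made by fibroblasts. Basement membrane collagen (type IV) forms the sheet-like network under epithelium and endothelium; its chains assemble in fixed partnerships, with the widespread network built from the chains of Col4a1 and Col4a2, and another built from those of Col4a3, Col4a4 and Col4a5. The remaining genes make beaded filaments (type VI), fibril-associated collagens such as type XIV, multiplexins of the basement membrane zone (types XV and XVIII), transmembrane collagens such as type XIII, and network-forming short chains (type VIII). In the thyroid, follicles of thyrocytes and the dense capillaries around them each rest on a basement membrane.

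Libraries held 583 to 1805 cells and 3013324 to 11880793 UMIs, and 15 of 10171 cell barcodes occurred in more than 1 library. The deposited annotation gave each cell 1 of 16 labels. Levels are given as CPM: a gene's UMIs in the cells of 1 label and library, divided by all UMIs of those cells and scaled to 1000000. As 3′ UMI counts do not grow with transcript length, CPM was not divided by length. Capture may still differ between genes, so orders and ratios of different genes are those of captured UMIs. A defining marker was present in the labels used here: Dcn at 23949 CPM in F (fibroblast), Plvap at 3995 in EC1 and 3739 in EC4 (endothelium). Cdh5 stood at 1437 in EC2, Lyve1 at 407 in EC3 (a lymphatic marker) and Acta2 at 11339 in SM (smooth muscle). Sox10 was at 327 in S (Schwann cell), C1qa at 4360 in M (macrophage) and Cd3e at 615 in T1 and 650 in T2. Tg was at 92030 in Th1 (thyrocyte), 26397 in Th2 and 79768 in Th3. Plvap was lower in EC2 than in EC1 (136 against 3995), and so was Emcn (431 against 3672). Kdr (634 against 1946) and Pecam1 (984 against 1361) were also lower there, while Cdh5 was higher (1437 against 824). The titles place RW 3 and aJ1aJ2 1 in a sample-number range here called series A, the other RW and aJ1aJ2 libraries in series B, and every aN1aN2 library in series C, so series C and aN1aN2 cannot be told apart. Median UMIs per F cell were 7664 over the RW cells, 6146 in aJ1aJ2 and 3153 in aN1aN2, and in Th1 cells 17624, 12946 and 6500. Their part in the results was not tested, beyond the cell shares given below at a common depth. In the F cells of aN1aN2 2, 1 cell carried 63.6% globin UMIs.

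In the RW libraries the collagen classes fell to different labels. F was 3.32% of RW cells and held 93.4% of all fibrillar collagen UMIs, with 21004 CPM over the 10 fibrillar genes. S followed with 2.17% of those UMIs and SM with 1.47%. EC1 held 59.8% of the basement membrane collagen UMIs, Th1 20.0%, EC4 5.38% and F 5.08%. The order of levels differed, at 3847 CPM in EC4, 2904 in EC1, 2050 in EC2, 1337 in F, 1040 in SM and 444 in Th1. In labels not known as sources of fibrillar collagen its summed level was lower but uneven, at 5.77 CPM in the T-cell label T1, 26.1 in T2 and 26.6 in M, and at 5.61, 63.6 and 99.6 in the thyroid labels Th1, Th2 and Th3. Over all libraries, the label with the largest number of UMIs was F for 15 of the 40 genes, Th1 for 13, S for 6, EC1 for 4, and EC3 and SM for 1 each, with the leading label holding from 30.9% to 95.1% of a gene's UMIs.

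The 5 leading collagen genes of F in the pooled RW cells were Col3a1 at 8783 CPM (the type III chain), Col1a2 at 5495 and Col1a1 at 5136 (the type I chains), and Col6a1 at 1337 and Col6a2 at 926 (type VI chains). EC1 was led by Col4a1 at 1608, Col4a2 at 1262, the transmembrane collagen Col13a1 at 680 and Col15a1 at 294, and Col4a3 at 23.6. In SM, from 44 RW cells, Col4a1 stood at 547, Col3a1 at 535, Col4a2 at 359, Col18a1 at 310 and Col1a2 at 283. S carried Col1a2 at 416, Col3a1 at 360, Col4a1 at 262, Col1a1 at 230 and Col4a2 at 159. Th1 held the other type IV chains, with 84.6% of the RW UMIs of Col4a4 and 90.5% of those of Col4a6, and also 93.7% of Col9a1 and 86.8% of Col9a3, chains of the fibril-associated type IX. EC3 was the label with most RW UMIs of Col8a1, a short-chain collagen of vessels, at 51.9%. These labels are clusters of the same cells, so the levels between labels are a description and were not tested.

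**Figure D1:**
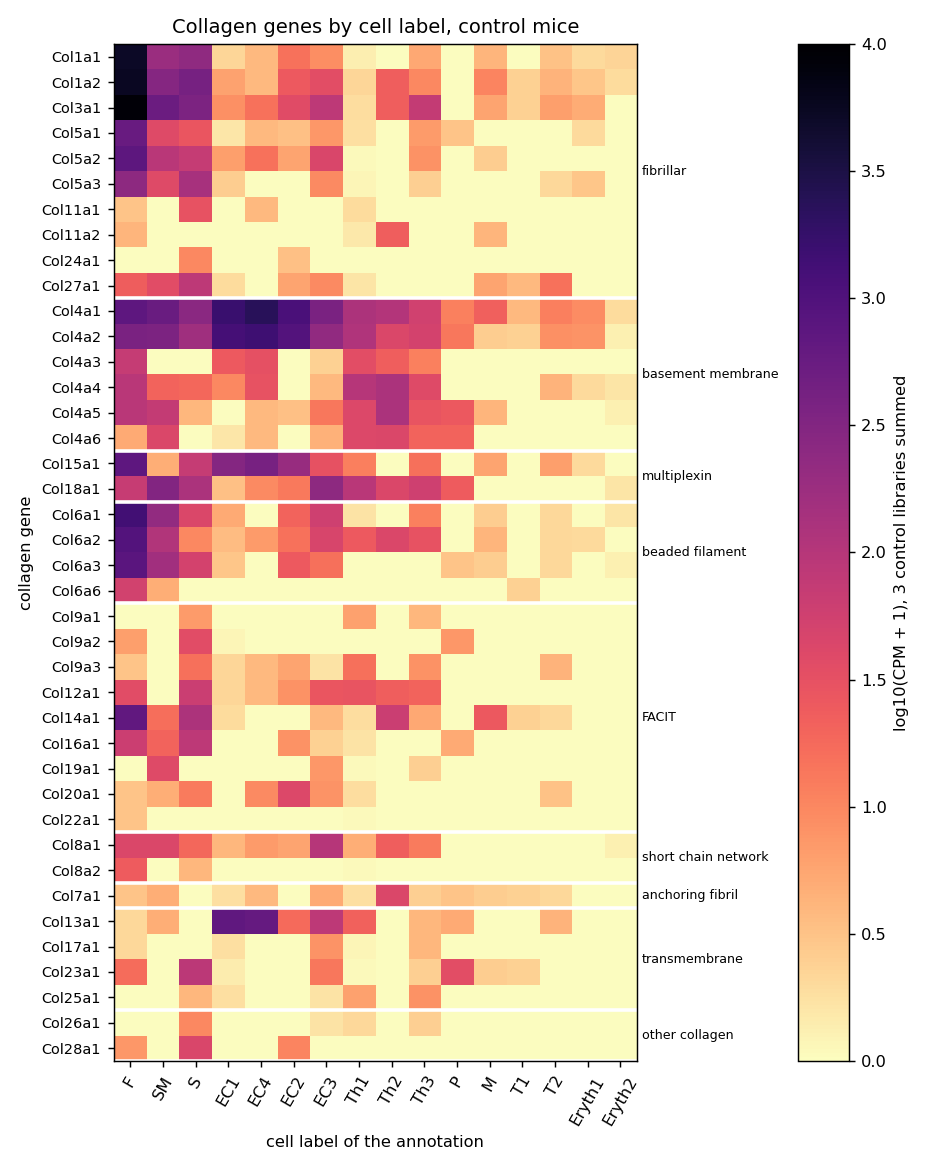
Level of collagen genes (rows, grouped by class) in each cell label (columns) over the pooled RW libraries, with log10 of CPM plus 1 as colour. The genes of types I, III and V are darkest in F, and Col4a1 and Col4a2 in EC1, EC4 and EC2.

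Across the 13 labels with at least 50 RW cells, the gene whose profile was most like that of Col3a1 was Col5a1, with Pearson's r of 0.958 on the log2 scale of CPM plus 1, followed by Col1a2 at 0.954 and Col5a2 at 0.949. Col4a1 was most like Col4a2 at 0.978, then Col15a1 at 0.959 and Col13a1 at 0.739. Col15a1 in turn was most like Col4a1, then Col4a2 at 0.930 and Col5a2 at 0.762. The labels share libraries and differ in depth, so these values are descriptions across 13 points.

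The upstream sequences of 4 genes that fell in the comparisons below are shown to give their context, from those whose window was in the table and overlaps no annotated exon; Col14a1 and Col1a1 had no window and that of Col6a6 overlaps an exon. Each is the 250 bases before the RefSeq transcription start on the GRCm38.p6 build, written 5′ to 3′ on the gene's strand, with matches to the searched motifs in capitals. Col3a1 lies on chromosome 1 (chr1:45311288-45311537, plus strand), Col5a1 on chromosome 2 (chr2:27886175-27886424, plus strand), Col6a3 on chromosome 1 (chr1:90843972-90844221, minus strand) and Col15a1 on chromosome 4 (chr4:47207762-47208011, plus strand).
Col3a1: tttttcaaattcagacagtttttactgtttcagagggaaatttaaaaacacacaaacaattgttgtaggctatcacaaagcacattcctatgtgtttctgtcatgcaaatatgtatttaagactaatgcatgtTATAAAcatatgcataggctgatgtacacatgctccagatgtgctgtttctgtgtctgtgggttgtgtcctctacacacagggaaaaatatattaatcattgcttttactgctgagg
Col5a1: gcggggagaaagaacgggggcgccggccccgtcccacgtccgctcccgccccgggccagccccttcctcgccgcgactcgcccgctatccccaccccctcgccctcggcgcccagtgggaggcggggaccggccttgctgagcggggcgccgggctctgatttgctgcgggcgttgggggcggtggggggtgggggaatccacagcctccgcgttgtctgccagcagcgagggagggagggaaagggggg
Col6a3: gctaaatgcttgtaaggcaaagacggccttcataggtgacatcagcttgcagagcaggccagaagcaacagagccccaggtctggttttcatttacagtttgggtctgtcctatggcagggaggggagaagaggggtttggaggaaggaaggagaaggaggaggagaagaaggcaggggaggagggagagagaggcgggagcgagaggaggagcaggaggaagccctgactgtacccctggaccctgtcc
Col15a1: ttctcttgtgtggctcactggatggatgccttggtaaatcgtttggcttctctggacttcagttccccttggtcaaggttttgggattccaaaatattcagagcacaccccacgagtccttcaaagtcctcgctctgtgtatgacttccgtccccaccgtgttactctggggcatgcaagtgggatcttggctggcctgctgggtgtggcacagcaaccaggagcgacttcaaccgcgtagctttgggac
The motifs searched on both strands were TGGGAA, the core bound by the Notch pathway's DNA-binding protein, CCAAT and TATAAA. The Col3a1 window holds TATAAA and the windows of Col5a1, Col6a3 and Col15a1 hold none of them. Other collagen genes that fell also have a window free of annotated exons, not shown here. Among these, Col13a1 holds TGGGAA and TATAAA, Col9a1 holds TGGGAA, and Col5a3 and Col25a1 hold CCAAT. Those of Col8a1 and Col6a2 hold none of the motifs. GC content was 35.2% in the Col3a1 window, 76.4% in that of Col5a1, 57.2% in that of Col6a3 and 53.6% in that of Col15a1. Of 32851 windows of all genes, 21.6% hold TGGGAA, 33.8% CCAAT and 12.4% TATAAA. Of the 35 windows of the 32 collagen genes with a window, 10 hold TGGGAA, 12 CCAAT and 4 TATAAA.

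The type IV genes lie in pairs head to head, transcribed away from each other. The starts of Col4a4 (minus strand) and Col4a3 (plus strand) leave 71 bases between them at chr1:82586850-82586920, shown because both genes rose together in Th1 below. The segment is written on the Col4a4 strand, has a GC content of 69.0% and holds none of the searched motifs.
Col4a3/Col4a4: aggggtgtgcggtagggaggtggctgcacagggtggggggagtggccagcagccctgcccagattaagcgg
The annotated starts of Col4a1 and Col4a2 overlap by 22 bases on chromosome 8, and those of Col4a5 and Col4a6 are 1342 bases apart on chromosome X.

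Ligand blockade was compared with control first, to ask what blocking Jag1 and Jag2 does to collagen transcripts. In F, Col3a1 stood at 10742, 9784 and 4463 CPM in RW 1, 2 and 3 and at 2838, 1797 and 2362 in aJ1aJ2 1, 3 and 4. Every aJ1aJ2 library was below every RW library, and the fitted change was -1.83 on the log2 scale (SE 0.30, adjusted p = 0.00639, edgeR quasi-likelihood test), a 3.55-fold lower level. Col1a1 was 5933, 5653 and 3173 in RW against 1734, 1271 and 1850 in aJ1aJ2. It also did not overlap, and fell by 1.60 on the log2 scale (SE 0.30, adjusted p = 0.0181, edgeR), a 3.02-fold lower level. These were the 2 collagen genes of 21 tested in F that passed at an adjusted p of 0.05 over all genes, where 0.579% of all genes passed. Their median change was -0.76 on the log2 scale, against -0.00 over all genes tested, and 16 of the 21 had an unadjusted p under 0.05, as 8.53% of all genes did.

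The other fibrillar genes of F did not pass the adjusted test under ligand blockade. Col1a2, the partner chain of Col1a1, stood at 5726, 6376 and 3548 CPM in RW and at 2505, 2194 and 2997 in aJ1aJ2, a log2 change of -1.02 (SE 0.27, adjusted p = 0.117, edgeR). Col5a1, a chain of type V that is built into type I fibrils, was 611, 682 and 331 in RW and 293, 286 and 271 in aJ1aJ2 (log2 change -0.94, SE 0.22, adjusted p = 0.0702, edgeR). The aJ1aJ2 values lay below every RW value for both genes, and likewise for Col5a2 (562 to 848 against 345 to 468), while for Col5a3 (113 to 281 against 110 to 133) the groups overlapped. Among the type VI chains, which form beaded filaments at the cell surface, Col6a1, Col6a2 and Col6a3 had log2 changes of -0.62, -0.76 and -0.66 with adjusted p of 0.443, 0.177 and 0.16 (edgeR). Col14a1, a fibril-associated collagen, was 466 to 903 in RW and 354 to 368 in aJ1aJ2 (log2 change -0.87, adjusted p = 0.18, edgeR).

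The size of the fall differed between the sample-number series. Within series A, which holds 1 library a group, Col3a1 was 1.57-fold lower in aJ1aJ2, and within series B 4.94-fold lower. The series B control level leaned on few cells. Of the 8314 Col3a1 UMIs in RW F cells, a single cell of RW 1 held 880. Single cells of RW 2 held 853 and 773. Their part in the size of the fall was not tested. Col1a1 was 1.83-fold lower in series A and 3.71-fold lower in series B, Col1a2 1.42-fold and 2.33-fold, and Col5a1 1.13-fold and 2.32-fold. With series as a block in the edgeR fit, 10 of 22 collagen genes tested in F passed, beside 0.943% of all genes in that fit, 9 of them lower (Col1a1, Col3a1, Col1a2, Col5a1, Col5a2, Col6a2, Col6a3, Col14a1 and Col4a3) and Col8a1 higher. Without RW 2 (0.0819% of all genes passed), and without aJ1aJ2 3 (0.142%), no collagen gene of F passed, and without RW 3 (0.692%) there were 7. Col3a1 missed the threshold in those first 2 fits (adjusted p of up to 0.0827, edgeR), and Col1a1 in those 2 and also without RW 1, aJ1aJ2 1 or aJ1aJ2 4.

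Outside F, ligand blockade lowered Col4a1 in EC1 and EC4 and Col15a1 in EC2. In EC1, Col4a1 was 1845, 1886 and 1282 CPM in RW and 1394, 848 and 941 in aJ1aJ2. The groups overlapped, because RW 3 was lower than aJ1aJ2 1, and the log2 change was -0.69 (SE 0.16, adjusted p = 0.038, edgeR). Macrophage markers in EC1 summed to 81.5 to 216 CPM in RW, 25.2 to 42.5 in aJ1aJ2 and 0 to 9.49 in aN1aN2, with no overlap between any of the groups, and their part in the EC1 results was not tested. In EC4 Col4a1 was 2691, 2242 and 2027 in RW and 1604, 876 and 1112 in aJ1aJ2, with no overlap (log2 change -0.95, SE 0.19, adjusted p = 0.0118, edgeR). Endothelial markers in EC4 summed to 11883 to 12967 CPM in RW, 9806 to 11342 in aJ1aJ2 and 10098 to 10568 in aN1aN2, and Schwann cell markers to 35.9 to 125, 0 to 9.75 and 4.96 to 8.28, so both were lower in every treated library, and their part in the EC4 results was not tested. The partner chain Col4a2 did not pass in EC1 (log2 change -0.37, SE 0.15, adjusted p = 0.263) or EC4 (-0.21, SE 0.21, adjusted p = 0.796, edgeR). Col15a1, a multiplexin that links basement membrane to the fibrils beside it, was 109 and 163 in EC2 of RW 1 and 2 and 8.58 and 30.1 in aJ1aJ2 3 and 4 (log2 change -2.59, SE 0.58, adjusted p = 0.0352, edgeR), from 42 and 18 UMIs. RW 3 and aJ1aJ2 1 had fewer than 20 EC2 cells and were not in that fit. In EC1, where it is more abundant, Col15a1 was 214 to 391 in RW and 254 to 404 in aJ1aJ2, a log2 change of -0.03 (SE 0.18).

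Collagen calls in the endothelium were 1 of 7 genes tested in EC1 (1.43% of all genes), 1 of 4 in EC4 (0.903%), 1 of 3 in EC2 (1.91%) and 0 of 11 in EC3 with edgeR (0.0618%; 1 at an unadjusted p under 0.05, as 7.54% of all genes were, and 0 with DESeq2). No collagen gene passed in Th1 with edgeR (0 of 14, 0.612% of all genes; 2 at an unadjusted p under 0.05, as 12.3% of all genes were) or with DESeq2 (0). Over all labels tested, 5 of 73 collagen tests passed, where 0.662% of all gene tests did. The count was 18 of 326 without the low-count filter (0.855% of all gene tests) and 12 of 48 with series as a block (1.08%). With 1 library left out it ran from 0 of 79 without aJ1aJ2 3 (0.211%) to 22 of 74 without RW 3 (3.21%). The EC1 call was lost with series as a block (adjusted p = 0.0702, edgeR), without RW 1, RW 2, aJ1aJ2 3 or aJ1aJ2 4, and with the aN1aN2 libraries left out of the fit. The EC4 call was lost without RW 1, aJ1aJ2 3 or aJ1aJ2 4, and the EC2 call without RW 1, RW 2 or aJ1aJ2 3, each of which leaves 1 library in that arm of the EC2 fit, assumed to vary like the other groups.

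Receptor blockade was compared with the same RW libraries, so the comparisons share their controls. In F, the fibrillar collagens were lower by a wide margin. Col3a1 stood at 440, 181 and 271 CPM in aN1aN2 1, 2 and 3 against 4463 to 10742 in RW. The fitted fall was 27.2-fold (-4.77 on the log2 scale, SE 0.36, adjusted p = 3.84e-08, edgeR). Col1a1 was 693, 356 and 206 against 3173 to 5933 (log2 change -3.49, adjusted p = 8.49e-07, edgeR). Col1a2 was 1201, 622 and 523 against 3548 to 6376, a log2 change of -2.69. Each aN1aN2 library was below each RW library for all 3 genes. Of 21 collagen genes tested in F, 14 fell and none rose, where 19.8% of all genes passed and 10.6% passed as lower. The median log2 change of the 21 was -2.33, and a gene expressed mainly in RW could enter the test only through RW.

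**Figure D2:**
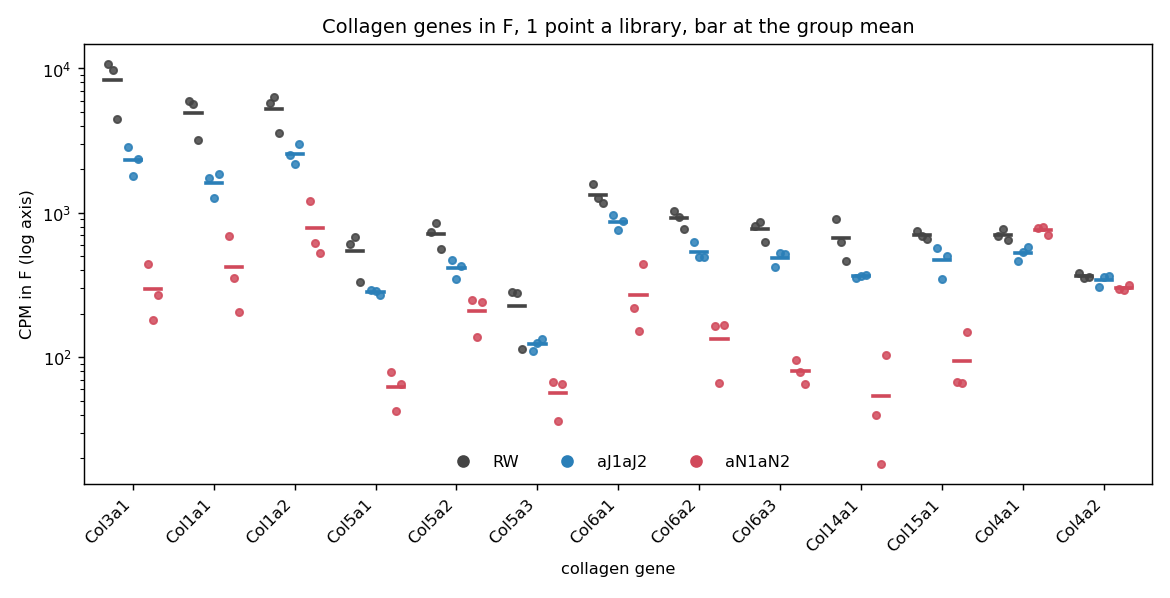
Collagen genes in F cells: CPM (log axis) in each library, 1 point a library, coloured by group, with a bar at each group's mean. For Col3a1 the 3 RW libraries lie at 4463 to 10742, the aJ1aJ2 libraries at 1797 to 2838 and the aN1aN2 libraries at 181 to 440, while Col4a1 lies between 466 and 803 in all 9.

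All 6 fibrillar genes tested in F fell. Besides types I and III these were the type V chains: Col5a1 was 78.9, 42.2 and 65.4 CPM in aN1aN2 against 331 to 682 in RW (log2 change -3.10), Col5a2 139 to 248 against 562 to 848 (-1.76) and Col5a3 36.2 to 67.6 against 113 to 281 (-2.02). Each group of 3 lay apart from the other. The share of Col1a1 against its partner Col1a2 shifted as well: the ratio of their UMIs was 1.04, 0.887 and 0.894 in RW, 0.692, 0.579 and 0.617 in aJ1aJ2 and 0.577, 0.573 and 0.393 in aN1aN2. The ratio of Col3a1 to Col1a2 was 1.26 to 1.88 in RW, 0.788 to 1.13 in aJ1aJ2 and 0.291 to 0.518 in aN1aN2. Both ratios were lower in every antibody-treated library than in any RW library.

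Of the other collagens tested in F, 8 of 10 fell. Among the type VI chains Col6a3 was 815, 869 and 628 CPM in RW and 95.8, 78.5 and 65.4 in aN1aN2, a log2 change of -3.21 (SE 0.24, adjusted p = 3.84e-08, edgeR). Col6a2 was 772 to 1029 against 66.4 to 168 (log2 change -2.78, adjusted p = 8.77e-07, edgeR), and Col6a1 1164 to 1581 against 151 to 439 (-2.33). The chains of type VI were thus lower in every aN1aN2 library than in any RW library. Col6a6, a further type VI chain, rested on 50 UMIs in RW and 2 in aN1aN2, a counting ratio of 11.9 with an exact 95% interval of 3.12 to 101. The fibril-associated Col14a1 was 903, 624 and 466 in RW and 39.5, 18.1 and 103 in aN1aN2 (log2 change -3.76, adjusted p = 9.23e-07, edgeR). Col16a1, of the same class, fell by 1.94 on the log2 scale (adjusted p = 0.0175, edgeR), a call lost without RW 1, aN1aN2 2 or aN1aN2 3. The multiplexins fell too: Col15a1 from 752, 691 and 658 to 67.6, 66.4 and 149 (log2 change -2.94, adjusted p = 8.49e-07, edgeR), and Col18a1, the precursor of endostatin, from 39.2 to 105 in RW to 5.64 to 28.0 (-2.54), a call lost without aN1aN2 1 or aN1aN2 2. The Col6a6 call was lost without aN1aN2 1 (adjusted p = 0.0522, edgeR).

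Of the basement membrane collagens in F, none of the 5 type IV genes tested passed with edgeR (0 of 5, with 2 at an unadjusted p under 0.05, as 31.0% of all genes were) or with DESeq2 (0). Col4a1 was 692, 770 and 649 CPM in RW and 784, 803 and 701 in aN1aN2, a log2 change of 0.15 (SE 0.18), and Col4a2 354 to 383 against 290 to 318 (-0.25, SE 0.18). Col4a4 had a log2 change of 0.16 (SE 0.29). Col4a3 was 66.8 to 78.5 in RW and 33.8 to 42.2 in aN1aN2, with no overlap (-0.86, SE 0.37, adjusted p = 0.124, edgeR), and Col4a5 34.9 to 116 and 18.1 to 84.1 (-1.01, SE 0.46, adjusted p = 0.142, edgeR). A change of such size was often missed in the simulated counts, where 26% of 2-fold changes were recovered in this comparison. The summed type IV level in F was 1349, 1413 and 1181 in RW, 966, 1061 and 1124 in aJ1aJ2 and 1280, 1255 and 1270 in aN1aN2, while the summed fibrillar level was 24074, 23644 and 12218, then 7978, 6045 and 8078, then 2728, 1382 and 1373.

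The cell markers measured beside these falls were as follows. The summed level of 5 fibroblast markers (Dcn, Pdgfra, Lum, Dpt and Gsn) in F was 50883 to 68242 CPM in RW, 62724 to 75959 in aJ1aJ2 and 65356 to 92710 in aN1aN2, and all 5 were present in every library. Within it, Dcn was 18338 to 21799 in RW and 29902 to 33720 in aN1aN2, but Lum was 1678 to 2512 and 501 to 1172, and Dpt 1116 to 1785 and 368 to 663. Smooth muscle and pericyte markers in F summed to 11.6 to 169 in RW, 15.7 to 38.9 in aJ1aJ2 and 0 to 9.34 in aN1aN2, and endothelial markers to 46.2 to 122, 45.2 to 54.5 and 37.4 to 60.3. Erythroid markers summed to 109 to 296 in RW, 161 to 982 in aJ1aJ2 and 851 to 43673 in aN1aN2. Their part in the collagen results was not tested, except for the 2 F cells with over 5% globin. Leaving these cells out left 14 collagen genes called for aN1aN2 against RW, beside 20.0% of all genes. It gave 4 of 21 collagen genes for aJ1aJ2 against RW, beside 0.663% of all genes.

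Single cells show how the falls were spread. Over the pooled RW libraries 96.7% of F cells had a Col3a1 UMI, against 89.6% in aJ1aJ2 and 40.5% in aN1aN2, at the unequal depths given above. After each cell was thinned to 1000 UMIs, the shares by library were 94.3%, 100% and 91.7% in RW. In aJ1aJ2 they were 75.5%, 57.8% and 72.1%. In aN1aN2 they were 20.5% (exact 95% interval 9.80 to 35.3), 13.9% (4.67 to 29.5) and 15.4% (4.36 to 34.9). Pooled, the thinned Col3a1 shares were 96.3% of 109 RW cells, 66.5% of 269 aJ1aJ2 cells and 17.0% of 106 aN1aN2 cells, with 11, 28 and 15 shallower cells left out. The intervals cover counting error only. The thinned share of EC1 cells with a Col3a1 UMI, as a level in cells not known to make it, was 0%, 0.147% and 0%, at a median depth of 4813, 3558 and 2752 before thinning. Col1a2 went the same way in F, at 95.4%, 82.9% and 29.2%, and Col15a1 at 41.3%, 30.1% and 8.49%. For Col4a1 the thinned shares were 42.2%, 40.5% and 43.4%. Median Col3a1 was 48.4 UMIs per 10000 in an RW cell, 12.7 in an aJ1aJ2 cell and 0 in an aN1aN2 cell.

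**Figure D3:**
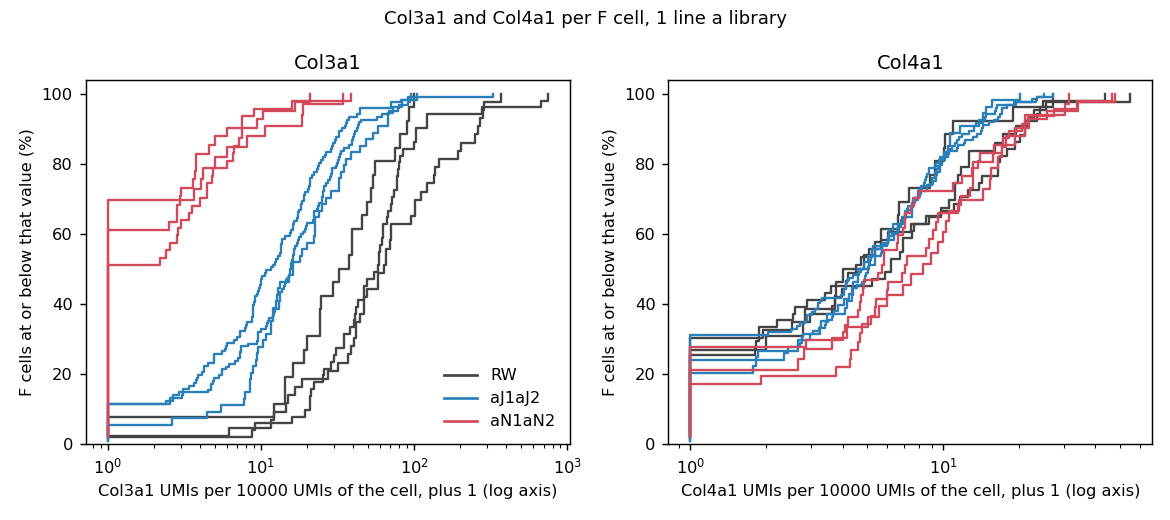
Cumulative share of F cells (y axis, percent) by UMIs of Col3a1 and of Col4a1 per 10000 UMIs of the cell, plus 1 (x axis, log), 1 line a library coloured by group. The Col3a1 lines separate by group, with pooled medians of 48.4 in RW, 12.7 in aJ1aJ2 and 0 in aN1aN2, while the Col4a1 lines lie closer together, with pooled medians of 3.98, 4.04 and 5.60.

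The share of cells labelled F was read beside the level per cell. It was 3.45%, 3.87% and 2.47% in the RW libraries, 9.26%, 6.70% and 7.81% in aJ1aJ2 and 4.49%, 4.63% and 4.80% in aN1aN2, so each treated library had a larger share than any RW library. Summed over all cells of a library, fibrillar collagen was 739, 1392 and 326 CPM in RW and 814, 463 and 828 in aJ1aJ2, where the groups overlapped. It was 125, 75.0 and 65.4 in aN1aN2, below every other library. The shares of cells also depend on which cells survive digestion.

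In the endothelium, receptor blockade lowered Col15a1 most among the collagen genes tested in EC1. It was 391, 319 and 214 CPM in RW, 404, 254 and 277 in aJ1aJ2 and 50.3, 37.4 and 28.5 in aN1aN2. The RW and aJ1aJ2 values were intermixed and the aN1aN2 values lay far below, with a log2 change of -2.98 against RW (SE 0.28, adjusted p = 9.63e-08, edgeR). In EC4 Col15a1 was 373, 273 and 499 in RW and 29.8, 72.3 and 49.7 in aN1aN2 (log2 change -3.06, adjusted p = 2.53e-07, edgeR). In EC2 it fell by 2.88 (adjusted p = 0.0224, edgeR), from 42 UMIs in RW 1 and 2 to 4 in aN1aN2, a call lost without aN1aN2 2 and without RW 1 or RW 2, where 1 RW library remained. Endothelial markers in EC2 summed to 3730 to 4879 CPM in RW, 3490 to 4007 in aJ1aJ2 and 2745 to 3262 in aN1aN2, with no overlap between RW and aN1aN2, and their part was not tested. The thinned share of EC1 cells with a Col15a1 UMI was 21.8% in RW, 21.7% in aJ1aJ2 and 4.55% in aN1aN2.

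The type IV network genes of the endothelium fell by less. Col4a1 in EC1 was 779, 926 and 725 CPM in aN1aN2 against 1282 to 1886 in RW (log2 change -1.07, adjusted p = 9.13e-05, edgeR) and Col4a2 was 779, 830 and 728 against 971 to 1530 (-0.79, adjusted p = 0.000765, edgeR). The groups did not overlap for either gene. Col13a1, a transmembrane collagen of cell contacts, was 678, 676 and 684 in RW and 459, 529 and 456 in aN1aN2 (-0.53, adjusted p = 0.003, edgeR). In EC4 Col4a1 fell by 1.22 (adjusted p = 2.09e-05) and Col4a2 by 0.61 (adjusted p = 0.035, edgeR), the latter lost without RW 1, RW 2, aN1aN2 1 or aN1aN2 3, with DESeq2 and without the low-count filter. The ratio of Col4a1 to Col4a2 UMIs in EC1 was 1.23 to 1.32 in RW, 0.948 to 1.13 in aJ1aJ2 and 0.996 to 1.12 in aN1aN2, below RW in every treated library. In F it was 1.80 to 2.18 in RW, 1.48 to 1.59 in aJ1aJ2 and 2.21 to 2.77 in aN1aN2, below every RW library in aJ1aJ2 and above every RW library in aN1aN2. The calls were 4 of 7 genes tested in EC1 (17.8% of all genes passed), 3 of 4 in EC4 (21.1%) and 1 of 3 in EC2 (15.5%). The summed endothelial markers in EC1 were 12319 to 13393 in RW, 10359 to 13543 in aJ1aJ2 and 8928 to 9206 in aN1aN2, so they moved with these falls, and their part was not tested.

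Whether Col4a1 changed differently in F and in EC1 was tested with an interaction of label and group. Under receptor blockade the F change exceeded the EC1 change by 1.13 on the log2 scale (SE 0.22, adjusted p = 0.00195, edgeR), where 9.15% of all genes tested passed that interaction. For Col4a2 the difference was 0.44 (SE 0.23, adjusted p = 0.273, edgeR) and did not pass. For the rises in thyrocytes described below, the share of genes that passed the same kind of test was 13.6% between F and Th1 and 12.1% between EC1 and Th1, and under ligand blockade it was 0.569% between F and EC1. The thinned share of EC1 cells with a Col4a1 UMI was 69.1% in RW, 57.2% in aJ1aJ2 and 51.5% in aN1aN2, beside the Col4a1 shares in F given above.

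In EC3, which carries lymphatic markers, Col8a1 and Col18a1 fell. Col8a1 was 80.0, 93.2 and 122 CPM in RW and 0, 24.3 and 33.0 in aN1aN2, from 138 and 9 UMIs (log2 change -2.22, adjusted p = 0.0127, edgeR). Col18a1 was 222 to 265 in RW and 97.0 to 145 in aN1aN2 (-0.93, adjusted p = 0.0397, edgeR). Neither overlapped, and 2 of 11 collagen genes tested passed, where 5.91% of all genes did. Smooth muscle and pericyte markers in EC3 summed to 2719 to 4367 CPM in RW, 883 to 1406 in aJ1aJ2 and 766 to 976 in aN1aN2, fibroblast markers to 217 to 1504, 255 to 955 and 92.8 to 119, and lymphatic markers to 324 to 609, 580 to 1955 and 42.4 to 487. The smooth muscle and fibroblast sums moved with these falls, SM and F also carry Col18a1 and Col8a1, and their part in the falls was not tested. The Col8a1 call was lost without aN1aN2 2, and the Col18a1 call without any 1 RW or aN1aN2 library except RW 3, with DESeq2 and with a minimum of 10 cells.

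Thyrocytes showed falls of some chains and rises of others. Col4a4 in Th1 was 101, 119 and 84.6 CPM in RW, 89.1, 130 and 121 in aJ1aJ2 and 220, 223 and 204 in aN1aN2. The RW and aJ1aJ2 values overlapped, the aN1aN2 values lay above both, and Col4a4 rose by 1.11 on the log2 scale against RW (SE 0.14, adjusted p = 2.22e-05, edgeR). Its head-to-head neighbour Col4a3 was 37.8, 49.4 and 26.0 in RW and 77.2, 78.8 and 66.5 in aN1aN2 (log2 change 1.06, adjusted p = 0.000424, edgeR). Col4a5, whose chain joins theirs, was 30.4 to 49.5 in RW and 47.0 to 63.4 in aN1aN2 (0.47, SE 0.22, adjusted p = 0.118, edgeR), and Col4a6 38.6 to 46.7 and 37.8 to 51.7.

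Col4a1 in Th1 moved the other way, from 126, 146 and 110 CPM in RW to 64.6, 78.2 and 35.5 in aN1aN2 (log2 change -1.03, adjusted p = 0.000455, edgeR). Col4a2 was 102 to 122 in RW and 69.9 to 97.9 in aN1aN2 (-0.41, adjusted p = 0.0252, edgeR), a call lost without RW 1, RW 2, aN1aN2 1 or aN1aN2 3. The summed UMIs of Col4a3 and Col4a4 over those of Col4a1 and Col4a2 were 0.557, 0.645 and 0.523 in RW, 0.730, 0.965 and 0.776 in aJ1aJ2 and 1.99, 1.71 and 2.57 in aN1aN2. The ratio was thus above 1 in each aN1aN2 library and below 1 in each other library. Endothelial markers in Th1 summed to 364 to 499 CPM in RW, 190 to 435 in aJ1aJ2 and 76.8 to 390 in aN1aN2, and Schwann cell markers to 225 to 248, 163 to 198 and 87.1 to 99.1. Fibroblast markers summed to 87.5 to 100.4, 149 to 254 and 182 to 219, and parathyroid markers to 9.34 to 47.4, 19.0 to 69.1 and 125 to 294. The Schwann, fibroblast and parathyroid sums did not overlap between RW and aN1aN2, and the part of these markers in the Th1 changes was not tested.

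**Figure D4:**
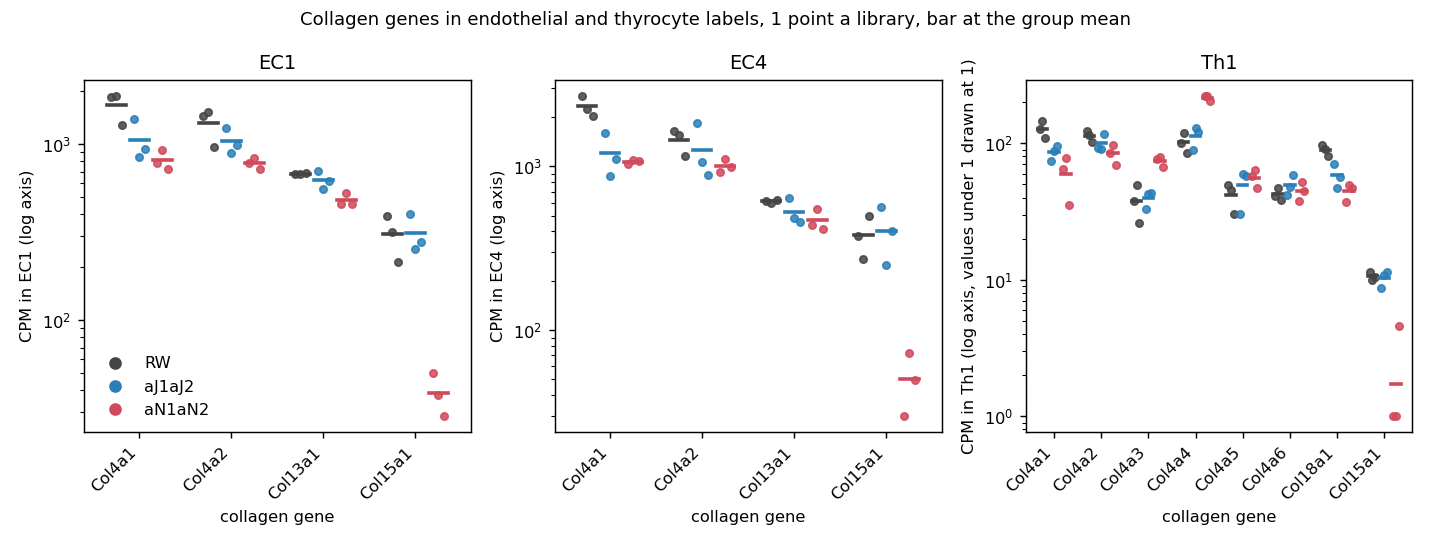
Basement membrane, multiplexin and transmembrane collagen genes in EC1, EC4 and Th1: CPM (log axis) in each library, 1 point a library, coloured by group, with a bar at each group's mean and, in Th1, values under 1 drawn at 1. Col15a1 is lowest in the aN1aN2 libraries in both endothelial labels, and Col4a3 and Col4a4 are highest in aN1aN2 in Th1.

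Other collagens of Th1 fell under receptor blockade. Col18a1 was 97.9, 90.7 and 80.6 CPM in RW, 70.6, 47.4 and 56.5 in aJ1aJ2 and 37.2, 49.9 and 47.0 in aN1aN2, with a log2 change of -1.02 in aN1aN2 (adjusted p = 0.000398, edgeR) and of -0.65 in aJ1aJ2 (adjusted p = 0.0785, edgeR). All treated libraries were below all RW libraries. Col9a3 was 13.8 to 16.0 in RW and 1.15 to 6.57 in aN1aN2 (-1.62), and Col12a1, a fibril-associated collagen, 24.8 to 30.6 and 15.4 to 16.4 (-0.79). Col25a1, a transmembrane collagen, rested on 59 UMIs in RW and 3 in aN1aN2, a counting ratio of 7.57 (exact 95% interval 2.47 to 37.7), and its call was lost without aN1aN2 1. Col15a1, at 10.0 to 11.3 in RW and 0 to 4.58 in aN1aN2, fell by 3.14 (adjusted p = 0.000652, edgeR). Col9a1 fell by 1.06 (adjusted p = 0.0476, edgeR), a call lost when any 1 RW or aN1aN2 library was left out, with DESeq2 and with no low-count filter. In all, 10 of 14 collagen genes tested in Th1 passed, where 34.4% of all genes did; 2 were higher, as 17.1% of all genes were, and 8 lower, as 17.3% were. Over all labels tested 34 of 60 collagen tests passed for aN1aN2 against RW, beside 19.9% of all gene tests.

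The antibody groups were compared directly last. In F, 14 of 21 collagen genes tested passed in aN1aN2 against aJ1aJ2, where 16.0% of all genes passed, 13 of them lower (8.35% of all genes) and 1 higher. Over all labels it was 29 of 72 collagen tests, beside 12.9% of all gene tests. Col3a1 was 2.94 lower on the log2 scale (adjusted p = 8.34e-06, edgeR), Col6a3 2.55 lower (adjusted p = 1.06e-06, edgeR) and Col14a1, Col15a1, Col5a1 and Col6a2 2.02 to 2.90 lower. Col4a1 was higher by 0.55 (adjusted p = 0.0371, edgeR), a call lost when any 1 library of these 2 groups was left out and with no low-count filter. In EC1 Col15a1 was 2.95 lower, with Col13a1 the other of 2 calls among 7 tested (13.5% of all genes). In EC4 Col15a1 was 3.06 lower, the single call among 4 (17.2%). In Th1, 7 of 14 passed (22.3% of all genes), with Col4a4 higher by 0.93 and Col4a3 by 0.92. Of these calls Col13a1 in EC1, Col5a2, Col5a3, Col8a1 and Col18a1 in F, and Col9a1, Col12a1 and Col25a1 in Th1 were lost when some 1 library was left out; Col5a2 was lost without aN1aN2 2, and Col5a3, Col9a1, Col12a1 and Col25a1 also with DESeq2.

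SM could be tested only between the antibody groups, since only RW 3 had 20 or more SM cells. There, 5 of 12 collagen genes passed, all lower in aN1aN2, where 4.05% of all genes passed and 2.79% passed as lower. Col3a1 was 311 and 664 CPM in aJ1aJ2 3 and 4 and 13.3, 172 and 67.7 in aN1aN2 (log2 change -2.74, SE 0.46, adjusted p = 6.97e-05, edgeR). The others were Col6a3, Col1a2, Col1a1 and Col6a2, with falls of 1.71 to 2.97, and these 4 calls were lost with DESeq2 and without aJ1aJ2 4, where 1 aJ1aJ2 library remained. Col1a1, Col1a2 and Col6a2 were also lost without the low-count filter, Col1a1, Col6a2 and Col6a3 with cells of at least 1000 UMIs, Col1a2 and Col6a2 without aN1aN2 1, Col1a1 and Col6a2 without aN1aN2 2, and Col6a2 without aN1aN2 3. SM values came from 26 to 60 cells a library. In S, 0 of 13 collagen genes tested passed for aJ1aJ2 against RW with edgeR (2 at an unadjusted p under 0.05, as 11.5% of all genes were) or with DESeq2, where 0.0% of all genes passed with edgeR. Of the 13, 1 was lower in aJ1aJ2, with a median log2 change of 0.49 and a range of -0.05 to 3.19.

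Of the 40 collagen genes, 28 passed the filter on low counts in at least 1 label. Of those, Col4a5, Col4a6, Col20a1 and Col27a1 passed the test in no label and comparison. The 12 never tested held 10 to 173 UMIs each over all cells: the fibrillar Col11a1, Col11a2 and Col24a1, the anchoring fibril gene Col7a1, Col8a2, Col9a2, Col17a1, Col19a1, Col22a1, Col23a1, Col26a1 and Col28a1. Of these, Col23a1, Col9a2, Col24a1 and Col28a1 had more UMIs in S than in any other label, and Col19a1 in SM.

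**Figure D5:**
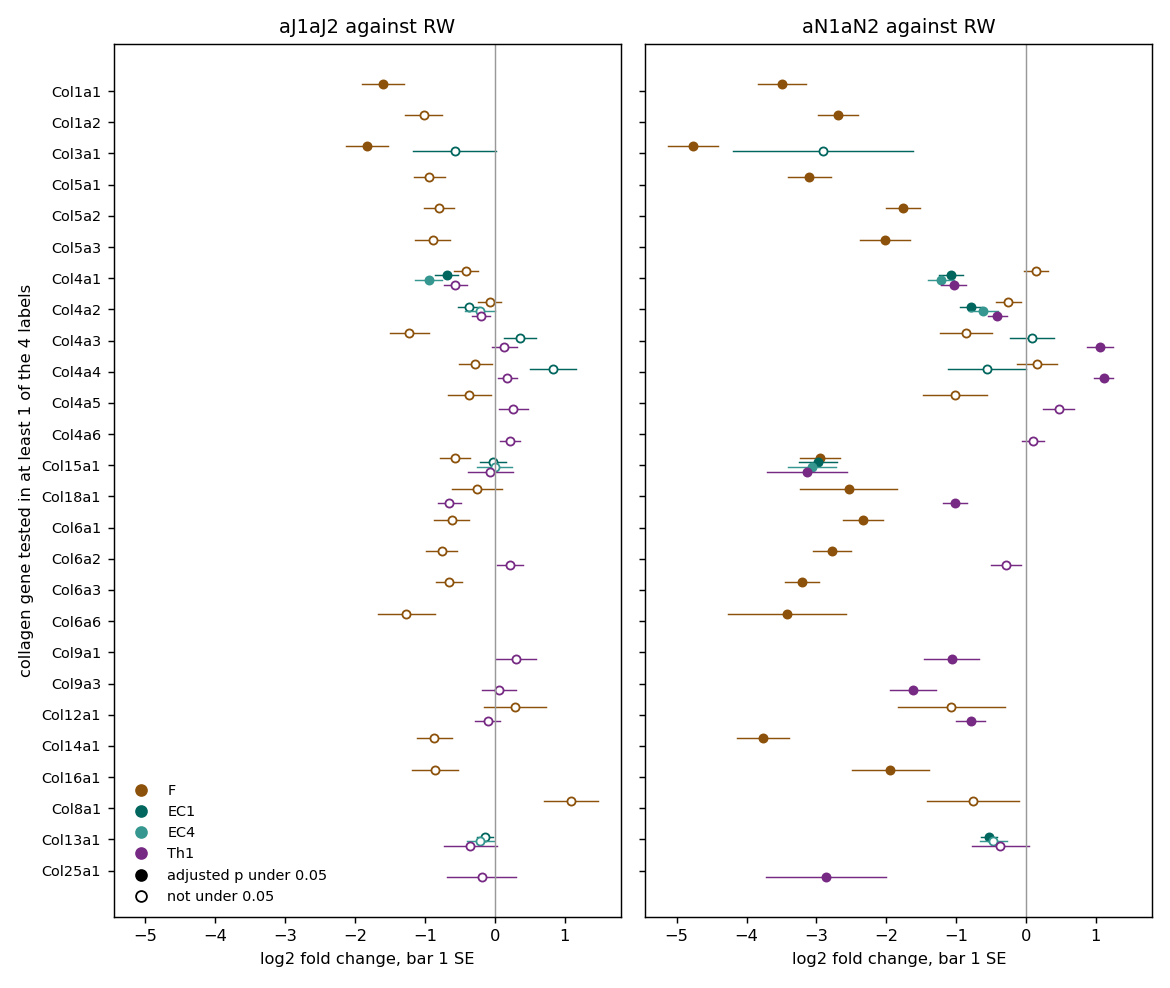
Fitted log2 change of collagen genes (points, with bars of 1 standard error) in F, EC1, EC4 and Th1 for aJ1aJ2 against RW and aN1aN2 against RW, with filled points for an adjusted p under 0.05. In F the aN1aN2 points of the fibrillar and type VI genes lie below those of aJ1aJ2, and in F the aN1aN2 points of Col4a1 and Col4a2 lie at 0.15 and -0.25.

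Genes that act on collagen were read from a list of 65 for folding and export, modification, processing, crosslinking and breakdown, together with collagen receptors and growth factors of the matrix, of which 46 were tested in F. Under ligand blockade 1 passed, beside 0.579% of all genes: Mmp11, a stromal metalloproteinase, was 15.5 ± 4.32 CPM in RW and 51.9 ± 13.6 in aJ1aJ2 (SD, n = 3) (log2 change 1.67, adjusted p = 0.0478, edgeR). That call was lost with DESeq2, with DESeq2's size factors in edgeR, with only the compared groups fitted, and without RW 1, RW 2, RW 3, aJ1aJ2 1 or aJ1aJ2 3. Under receptor blockade 24 of the 46 passed, 20 lower and 4 higher, beside the 19.8% of all genes that passed in F and the 10.6% that passed as lower. Serpinh1, the chaperone of procollagen, was 1618 ± 168 in RW and 184 ± 39.2 in aN1aN2 (SD, n = 3) (log2 change -3.08, adjusted p = 3.03e-08, edgeR). Falls passed for 6 of 8 prolyl hydroxylase genes, all 4 propeptide-processing genes tested, 3 of 4 crosslinking enzymes and 3 of 6 chaperone and export genes. The fourth crosslinking enzyme, Lox, rose from 79.7 ± 36.6 to 716 ± 109 (SD, n = 3), a log2 change of 3.13 (adjusted p = 1.13e-07, edgeR). Its relatives Loxl1 and Loxl2 fell by 2.30 and 2.70. Among the 10 breakdown genes 3 rose, Mmp11 by 2.74, the collagenase Mmp14 by 1.20 and the inhibitor Timp3 by 0.66, and 3 fell. Of 4 lysyl modification genes 0 passed with edgeR and 0 with DESeq2, with Plod2 the 1 at an unadjusted p under 0.05.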

How the data were processed

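The authors deposited whole-number UMI counts per gene and cell, with a cell annotation that gives each cell a library and a label; how the labels were made is not given in the sources used here. The submitters' processing notes name Cell Ranger and GRCm38. Of 52636 gene identifiers, 52403 were matched to a symbol. Counts were summed per library and label. A label was tested where at least 2 libraries of each group held 20 or more cells, with edgeR 4.0.16 in R 4.3.3: TMM normalization, edgeR's own filter on low counts, a quasi-likelihood test on the 3 group means, and Benjamini-Hochberg adjustment over all genes of the label at 0.05. DESeq2 1.42.0 was an alternative, beside DESeq2's size factors, no filter, 10 cells a library, cells of at least 1000 UMIs, only the groups compared, series and replicate blocks, and each library left out. Further choices were made after seeing the values: leaving out F cells with over 5% globin UMIs, and the interactions between labels. No doublet caller was run.

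The collagen genes, their classes, the machinery list and the tests were chosen with earlier results of these data known. Named in full were the main chains of types I, III, IV, V, VI, XIV, XV and XVIII, the 6 collagen genes of smallest p per label and comparison, and the 5 highest of F, SM, EC1 and S in RW. Depth was 3013324 to 11880793 UMIs a library. On counts simulated for F, aN1aN2 against RW, 88% of 4-fold and 26% of 2-fold changes were recovered among 4767 genes. Promoter sequences come from RefSeq on GRCm38.p6, gene coordinates from GENCODE on GRCm38.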

Additional observations from a re-analysis of the deposited data

Results flagged for a closer look

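For 7 of 42 collagen tests, 1 of 21 under ligand blockade and 6 of 21 under receptor blockade, the change differed between labels in a test of the difference itself (edgeR, libraries as blocks, Benjamini-Hochberg over all genes). All are log2 values. Each difference, first label minus second, comes from a fit of both labels together, and the changes beside it from the fit of each label alone, so the changes do not subtract exactly to it.

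Under receptor blockade, aN1aN2 against RW, Col4a1 changed by 0.15 in F and by -1.07 in EC1, a difference of 1.13 (SE 0.22, adjusted p = 0.00195). Against Th1, where Col4a1 changed by -1.03, the difference was 1.19 (SE 0.20, adjusted p = 0.000404). For its partner chain Col4a2 the difference was 0.44 between F and EC1 (SE 0.23, adjusted p = 0.273, edgeR) and did not pass. Between F and Th1 it was 0.12 (SE 0.19, adjusted p = 0.748, edgeR) and did not pass either. Of the fibrillar and type VI genes only Col3a1 and Col6a2 could be tested between these labels. Col6a2 changed by -2.78 in F and -0.29 in Th1, a difference of -2.56 (SE 0.29, adjusted p = 7.15e-06), and for Col3a1 the difference between F and EC1 was -1.82 (SE 2.61, adjusted p = 0.738) and did not pass.

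Col4a3 and Col4a4, which rose in Th1 under receptor blockade by 1.06 and 1.11, did not do so in F. Col4a3 changed by -0.86 in F, a difference from Th1 of -1.88 (SE 0.43, adjusted p = 0.00589), and Col4a4 by 0.16, a difference of -0.92 (SE 0.25, adjusted p = 0.02). In EC1 Col4a4 changed by -0.56, a difference from Th1 of -1.69 (SE 0.49, adjusted p = 0.03), from 46 UMIs in RW and 7 in aN1aN2. For Col4a3 the difference between EC1 and Th1 was -0.99 (SE 0.36, adjusted p = 0.0835, edgeR) and did not pass.

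Under ligand blockade, aJ1aJ2 against RW, Col4a3 changed by -1.23 in F and 0.36 in EC1, a difference of -1.66 (SE 0.34, adjusted p = 0.023). Neither change passed in the fit of its label alone, though Col4a3 in F passed with series as a block. The share of all genes tested that passed was 0.569% for this contrast of F and EC1, 9.15% for F and EC1 under receptor blockade, 13.6% for F and Th1, and 12.1% for EC1 and Th1.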

How the results depend on the processing

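Among the named results that passed, none reversed under the alternatives run. For aN1aN2 against RW, 30 of 40 named results kept their call under every alternative, for aN1aN2 against aJ1aJ2 22 of 35, and for aJ1aJ2 against RW 0 of 6. The 5 calls of aJ1aJ2 against RW over all labels became 18 without the low-count filter and 12 with series as a block. In F the 2 calls became 9 (0.583% of all genes passed), 10 (0.943%) and, without cells over 5% globin, 4 (0.663%). In EC1 the 1 call became 0 with only the compared groups fitted (0.837%) and 0 with series as a block (1.62%), and in Th1 the 0 calls became 2 with no filter (1.87%) and 1 with the block (1.19%). The 1 machinery call in F became 0 with DESeq2's size factors (0.517%), 3 with no filter, 0 with only the compared groups (0.332%), 2 with series as a block and 2 without the globin cells. For aN1aN2 against aJ1aJ2, EC1 calls rose from 2 to 4 with no filter (7.15%), and Th1 calls went from 7 to 4 with DESeq2 (16.7%) and 11 with no filter (11.2%). The cause was not tested. Leaving out each library in turn gave, for aJ1aJ2 against RW, 0 to 22 calls over all labels, 0 to 7 in F, 0 to 2 in EC1, 0 to 1 in Th1 and 0 to 1 machinery calls. The 22 came without RW 3 and the 0 without aJ1aJ2 3; of the 22, 11 lay in S, where 1 RW library of 28 cells remained and is assumed to vary like the other groups. For aN1aN2 against RW the ranges were 27 to 37, 12 to 16, 4 to 4, 7 to 9 and 18 to 25 (from 34, 14, 4, 10 and 24), and for aN1aN2 against aJ1aJ2 19 to 26, 10 to 13, 1 to 3, 4 to 7 and 12 to 15 (from 29, 14, 2, 7 and 18). In the main fit of S for aJ1aJ2 against RW, 1 of 13 collagen genes was lower and the median log2 change was 0.49. With 1 library left out, the share of all genes passing in F, EC1 and Th1 moved too. It was 0.0819% to 0.692%, 0.424% to 3.94% and 0.00927% to 4.90% for aJ1aJ2 against RW. For aN1aN2 against RW it was 10.6% to 16.7%, 12.3% to 17.8% and 24.7% to 30.4%. For aN1aN2 against aJ1aJ2 it was 7.44% to 13.1%, 8.75% to 13.0% and 14.1% to 20.4%. The replicate numbers that RW and aN1aN2 share did not pair the libraries (correlation of deviations 0.036 in F, 0.015 in EC1 and -0.044 in Th1). A replicate block on RW 1 and 2 and aN1aN2 1 and 2 gave 15 calls of 19 tested in F, 4 of 5 in EC1 and 8 of 12 in Th1, where 23.8%, 20.9% and 34.1% of all genes passed, and 22 machinery calls in F. Depth limits the low genes: Col6a6 and Col25a1 rest on 2 and 3 UMIs in aN1aN2.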
